A study of Mus musculus with 4 samples.

Results

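The interleukin-1 (IL-1) family genes described here are Il33, Il1a, Il1b, Il18 and Il1rn, which encode ligands and a receptor antagonist, and Il1rl1, Il1r1 and Il1rap, which encode receptor chains. They were taken from the gene count table by matching Ensembl mouse gene identifiers to these symbols, and all 8 were found among its 39056 genes. The table covers 4 RNA-seq libraries, each labelled as cells from the lungs of S1PR1-GFP reporter mice, which mark cells that express the sphingosine-1-phosphate receptor S1PR1. Sorting, per the labels, kept reporter-positive cells that carried CD31, an endothelial surface protein, and lacked CD45, a leukocyte protein. The labels name an untreated state (no LPS) and LPS at 8, 16 and 20 h, with a single library behind each. Lipopolysaccharide (LPS) is a component of the outer membrane of Gram-negative bacteria, given here, per the labels, by intraperitoneal injection at 10 mg/kg. All 4 labels share the reporter, while the sources used here give neither strain, age, sex nor the number of animals behind a library. The series title concerns repair of the lung vessel barrier by the S1PR1-positive endothelium, and these libraries allow the levels of the family to be set against each other across the LPS labels.

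IL-33 is an alarmin, a cytokine held in the nucleus of barrier and stromal cells and released when cells are damaged. It binds ST2, the product of Il1rl1, which then recruits the accessory chain IL1RAP and signals through the adaptor MyD88 to NF-kB. IL-1 alpha and IL-1 beta use the receptor IL1R1 with the same accessory chain, the antagonist encoded by Il1rn occupies that receptor without signalling, and IL-18 has a receptor pair of its own. In the lung, IL-33 is known for acting on mast cells and type 2 innate lymphoid cells, and the IL-1 cytokines for driving the early response to endotoxin.

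Il33 and Il1rl1, a ligand and its receptor, had the widest differences between libraries among the measured members, so stretches ahead of their RefSeq transcript starts are shown. The sequences are those of RefSeq on build GRCm38.p6, where all 8 members had at least 1 start, and each covers the 250 bases before a start, 5′ to 3′ on the plus strand, on which both genes lie. Capitals mark matches, on either strand, to any of 5 motifs, which are TGANTCA for AP-1, TTCNNNGAA for STAT, TATAAA for the TATA box, GGGCGG for the GC box and TTGCNNNAA for C/EBP.
Il33, first start, chr19:29924863-29925112: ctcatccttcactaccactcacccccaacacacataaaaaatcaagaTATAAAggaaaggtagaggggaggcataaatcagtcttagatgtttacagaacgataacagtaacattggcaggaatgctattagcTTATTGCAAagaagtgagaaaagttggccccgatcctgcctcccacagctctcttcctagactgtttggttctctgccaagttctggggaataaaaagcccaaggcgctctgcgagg
Il33, second start, chr19:29945540-29945789: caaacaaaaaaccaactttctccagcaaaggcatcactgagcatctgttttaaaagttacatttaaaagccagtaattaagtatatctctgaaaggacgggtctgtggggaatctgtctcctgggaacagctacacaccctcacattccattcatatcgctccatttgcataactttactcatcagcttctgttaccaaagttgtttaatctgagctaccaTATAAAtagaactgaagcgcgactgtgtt
Il1rl1, first start, chr1:40429320-40429569: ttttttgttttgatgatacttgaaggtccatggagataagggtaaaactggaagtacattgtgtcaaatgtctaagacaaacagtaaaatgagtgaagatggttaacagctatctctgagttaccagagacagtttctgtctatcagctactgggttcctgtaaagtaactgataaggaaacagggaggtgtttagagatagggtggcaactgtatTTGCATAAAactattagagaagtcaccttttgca
The first window of each gene lies upstream of the gene, and the second Il33 window lies in an annotated intron of Il33. The second Il33 window holds TATAAA beginning 29 bases before the start. The first holds TATAAA beginning 203 bases before the start and TTATTGCAA, a C/EBP match on the opposite strand, beginning 117 bases before it. The Il1rl1 window shown holds a C/EBP match beginning 34 bases before the start. Il1rl1 has a second RefSeq start, whose window (chr1:40439379-40439628) overlaps an annotated exon and is not printed; it holds a GC box beginning 71 bases before the start. The 3 windows shown hold no AP-1, STAT or GC box letters. Of all 32851 RefSeq windows of this length, 12.4% hold TATAAA, 8.29% the C/EBP letters, 6.75% the AP-1 letters, 7.02% the STAT letters and 32.7% the GC box. These matches describe letters only, and counts per gene do not show which start was used.

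The totals were even, between 27566454 and 28905776 reads per library, and 11803 genes reached 1 CPM in at least 1 library; these are called measured genes. CPM is the number of reads per 1000000 reads of the scaled library size, so that libraries of unequal depth can be compared. Since each label has a single library, differences have no replicate check and no test, and every interval below covers counting error only. A gene is called higher or lower where the scaled fold was at least 2, its 95% interval excluded 1 and the higher library had at least 1 CPM. The cells named in the labels were not evident from their markers. Of 12 endothelial genes 1 was measured, Erg, Emcn and Cldn5 had 0 reads in all 4 libraries, and the list summed to 4.88 to 5.75 CPM. In the order no LPS, 8, 16 and 20 h, the CD31 gene Pecam1 had 7, 2, 2 and 1 reads. The CD45 gene Ptprc had 42, 37, 31 and 38 reads. The leukocyte list, with 4 of 6 genes measured, summed to 5.82 to 6.97 CPM. A direction between labels is therefore a direction between columns, and a time such as "8 h" stands for the library with that label. The labels can be read as hours since an injection or as hours at which injections were given. Cells known to respond to IL-33 left few reads as well. The mast cell and basophil list summed to 1.03 to 1.67 CPM, with 6 of its 9 genes, among them Cpa3, Kit, Fcer1a and Ms4a2, at 0 reads throughout. Most of its reads came from Mcpt8, its 1 measured gene, at 24, 42, 39 and 31 reads in the same order. The list of T cells and type 2 lymphoid cells summed to 0.920 to 1.41 CPM, with Cd3e, Cd3g, Trac and Icos at 0. Most of its reads came from Gata3, its 1 measured gene, at 21, 27, 32 and 23 reads.

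Il33 was the 1 member that was called, and per kilobase of exon it had the highest level of the 8 in every library. It lies on chromosome 19 (29925114 to 29960718, plus strand, mm10, protein coding), and no other annotated gene overlaps it. Reads from Il33 numbered 8917 without LPS, 2095 under the 8 h label, 2057 under 16 h and 8956 under 20 h. On the scaled totals these came to 316 CPM (95% counting interval 309 to 322), 73.0 CPM (69.9 to 76.2), 74.2 CPM (71.1 to 77.5) and 323 CPM (317 to 330). The libraries thus formed a high pair, no LPS and 20 h, and a low pair, 8 h and 16 h, and intervals overlapped within each pair but not between them.

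Against no LPS, Il33 was 4.32-fold lower at 8 h (4.12 to 4.54) and 4.25-fold lower at 16 h (4.05 to 4.46). At 20 h it was 1.03-fold the level with no LPS (0.995 to 1.06), which was not called. From 16 to 20 h it was 4.36-fold higher (4.15 to 4.57), and from 8 to 16 h it stood at 1.02-fold (0.957 to 1.08). Il33 was the single call among the 5 measured members at 8 h and at 16 h, where 8.31% and 8.23% of all measured genes were called in either direction, and again from 16 to 20 h, where 8.47% were. By direction, 4.13% of measured genes were called lower and 4.19% higher at 8 h, 4.09% lower and 4.13% higher at 16 h, and 3.85% lower and 4.63% higher from 16 to 20 h. No member was called at 20 h against no LPS or from 8 to 16 h, comparisons in which 0.652% (0.102% lower, 0.551% higher) and 0.237% (0.0763% lower, 0.161% higher) of measured genes were called. Among the 11803 measured genes, 97 had a lower log2 ratio than Il33 at 8 h and 97 at 16 h, and 94 had a higher one from 16 to 20 h. The comparisons at 8, 16 and 20 h share the no LPS library, and those from 8 to 16 h and from 16 to 20 h share the 16 h library.

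Some other features of the libraries divided in the same way as Il33. In the order no LPS, 8, 16 and 20 h, the summed level of 10 fibroblast genes, of which 3 were measured, was 212, 117, 122 and 203 CPM, and the collagen gene Col3a1 made up most of it, at 4735, 2349, 2305 and 4505 reads. Of the other measured fibroblast genes, Dcn had 268, 85, 95 and 214 reads, whereas Pdgfra did not divide the libraries in this way, with 963, 900, 954 and 880. The defining fibroblast genes Col1a1 and Col1a2 had at most 4 and 1 reads, and Tcf21 had 0 throughout. The macrophage list, with 5 of 10 genes measured and most reads from Cd68, summed to 126, 95.7, 94.2 and 129 CPM in the same order. Of its measured genes Cd68, at 2818, 1910, 1718 and 2675 reads, divided the libraries as Il33 did. The other 4 did not: Lyz2 had 609, 659, 680 and 710 reads, Mrc1 77, 90, 77 and 90, Adgre1 12, 31, 77 and 24, and Csf1r 9, 15, 30 and 26. The neutrophil list, with 1 of 6 genes measured (S100a8, at 34, 6, 7 and 25 reads) and Retnlg at 0 throughout, summed to 1.24, 0.348, 0.361 and 0.975 CPM. Mitochondrially encoded transcripts took 1.80%, 1.36%, 1.40% and 1.90% of reads. The 6 epithelial genes, of which 2 were measured, went the other way, with sums of 51.7, 124, 126 and 52.1 CPM that came almost wholly from the keratin genes Krt8 and Krt18, while Epcam had at most 3 reads. In bulk RNA, fewer cells of a type and less RNA per cell cannot be told apart, and the part of these features in the Il33 difference was not tested.

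**Figure D1:**
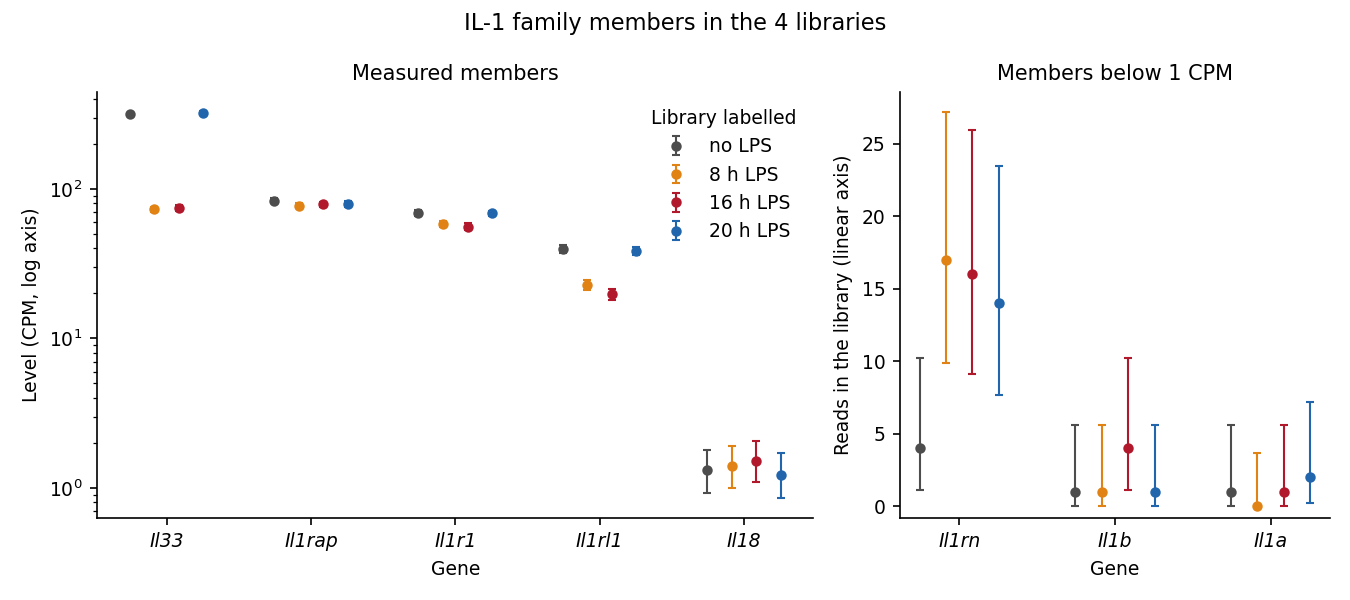
Levels of the 8 members in the 4 libraries (colours). The left panel plots CPM on a log axis for the 5 measured members and the right panel plots reads on a linear axis for the 3 members under 1 CPM, with 95% Poisson counting intervals as bars. Il33 stands at 316 and 323 CPM with no LPS and at 20 h and at 73.0 and 74.2 CPM at 8 and 16 h, while Il1rap stays between 77.4 and 83.6 CPM.

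The classical IL-1 ligands were close to absent. Il1a, which encodes IL-1 alpha (chromosome 2, 129299610 to 129309972, minus strand), had 1, 0, 1 and 2 reads. Here and from here on, sets of 4 values follow the order no LPS, 8, 16 and 20 h. Il1b, which encodes IL-1 beta (chromosome 2, 129364570 to 129371139, minus strand), had 1, 1, 4 and 1 reads. At 8 h the floor of 3 reads was 0.104 CPM and the exact interval of 0 reads reached 0.128 CPM. The highest upper limits were 0.261 CPM for Il1a, at 20 h, and 0.370 CPM for Il1b, at 16 h. Differences in these ligands within such limits were not detectable at this depth. The few Il1a reads are also uncertain, since an exon overlaps Gm14023 on the other strand, a gene with 41 reads over the 4 libraries, and how strand was handled is not stated in those sources. The few Il1b reads are uncertain in the same way, since its exons overlap Il1bos on the other strand, a gene that the count table lacks. Exons of Il1rap overlap Gm20319 on the other strand, a gene with 0 reads.

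Il1rn, which encodes the IL-1 receptor antagonist (chromosome 2, 24336853 to 24351494, plus strand), had 4 reads without LPS and 17, 16 and 14 reads with the 8, 16 and 20 h labels. The library labelled no LPS was the lowest and the 3 LPS libraries were alike, a different order from that of Il33. The ratio to no LPS was 4.18 at 8 h (1.37 to 17.1), 4.08 at 16 h (1.32 to 16.8) and 3.57 at 20 h (1.12 to 14.9), with every level under 1 CPM and therefore no call. Il18, which encodes a cytokine activated by caspase-1 (chromosome 9, 50554827 to 50581840, plus strand), had 37, 40, 42 and 34 reads, or 1.31, 1.39, 1.52 and 1.23 CPM. Its intervals overlapped in all 4 libraries, and its fold against no LPS was 1.06 at 8 h (0.663 to 1.71), 1.16 at 16 h (0.726 to 1.85) and 0.938 at 20 h (0.571 to 1.54), which leaves differences of up to about those bounds undetected.

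Among the receptors, Il1rl1 divided the libraries as Il33 did, over a narrower range. This gene for ST2 (chromosome 1, 40429570 to 40465415, plus strand) had 1120, 658, 549 and 1066 reads across the 4 labels, or 39.6, 22.9, 19.8 and 38.5 CPM. The 8 h and 16 h libraries were the low ones. Il1rl1 was 1.73-fold lower at 8 h (1.57 to 1.91), and was not called. At 16 h its ratio to no LPS was 0.500021 (1.80-fold to 2.22-fold lower), just short of a call, and with each of the other scalings tried (0.494 by library size, 0.498 with DESeq2 size factors and 0.496 with upper quartiles) it was called lower. At 20 h its fold against no LPS was 0.971 (0.892 to 1.06). The ratio from 8 to 16 h was 0.865 (0.770 to 0.970), an interval that excludes 1, whereas that of Il33 for the same pair did not. Il1rl1 gives rise to a membrane receptor and to a soluble decoy from the same gene, and counts per gene do not separate them.

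Il1r1 and Il1rap differed little. Il1r1, which encodes the signalling receptor for IL-1 alpha and IL-1 beta (chromosome 1, 40225080 to 40317257, plus strand), had 1943, 1677, 1553 and 1898 reads, or 68.7, 58.4, 56.1 and 68.5 CPM. It was 1.18-fold lower at 8 h (1.10 to 1.26) and 1.23-fold lower at 16 h (1.15 to 1.31), small differences beyond counting error, and its fold at 20 h was 0.997 (0.935 to 1.06). Il1rap, which encodes the accessory chain shared by the IL-33 and IL-1 receptors (chromosome 16, 26581704 to 26730117, plus strand), had 2364, 2221, 2184 and 2188 reads, or 83.6, 77.4, 78.8 and 79.0 CPM. The library labelled no LPS was the highest for Il1rap, by small differences of which those at 8 and 16 h lay beyond counting error: its fold against no LPS was 0.925 at 8 h (0.872 to 0.981), 0.942 at 16 h (0.889 to 0.999) and 0.945 at 20 h (0.891 to 1.002). Of the measured members, 4 of 5 had a log2 ratio below 0 at 8 h, with a median of -0.23, against a median of 0.00 over all measured genes. At 16 h, 4 of 5 were below 0 as well, with a median of -0.29 against 0.01. At 20 h, where no member was called, 4 of 5 were also below 0, with a median of -0.04 against -0.00, so the count of signs was the same in all 3 comparisons.

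**Figure D2:**
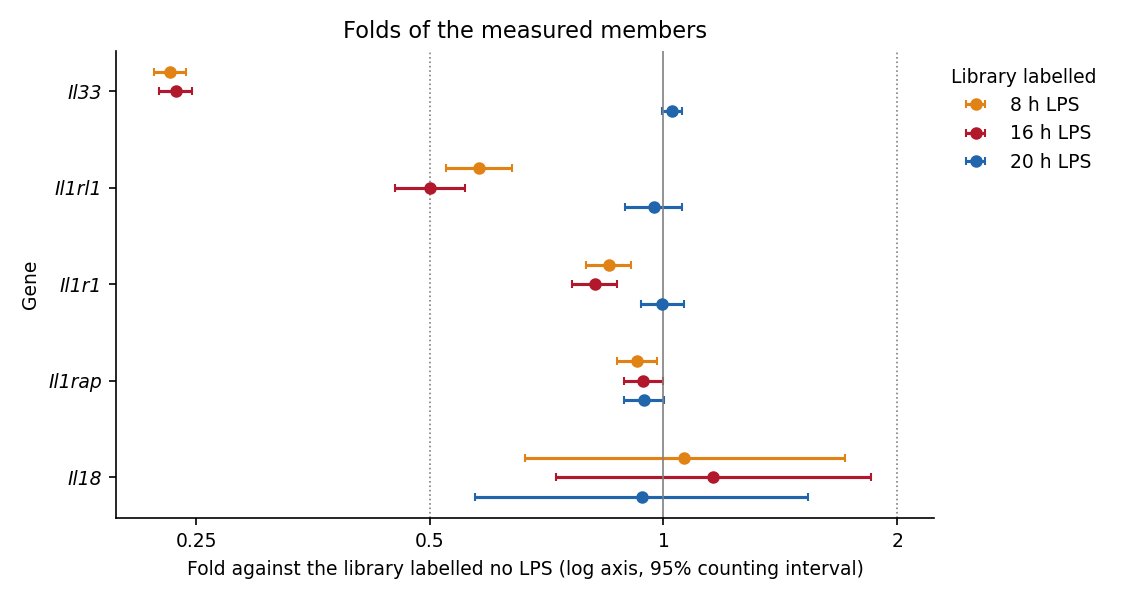
Fold of each of the 5 measured members in the libraries labelled 8, 16 and 20 h against the library labelled no LPS, on a log axis with 95% counting intervals; the solid line marks 1 and the dotted lines mark folds of 0.5 and 2. Il33 lies beyond the lower dotted line at 8 and 16 h (4.32-fold and 4.25-fold lower), Il1rl1 lies at that line at 16 h, and all 5 lie near 1 at 20 h.

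Levels of different genes were compared as CPM per kilobase of annotated exon. Without LPS the order was Il33 at 109, Il1r1 at 10.8, Il1rap at 7.36, Il1rl1 at 5.75 and Il18 at 1.27 CPM per kb, and these 5 intervals did not overlap. The order of these 5 was the same in all 4 libraries. Il1rn, Il1b and Il1a followed, at 0.0256, 0.0186 and 0.0179 CPM per kb, with intervals that overlapped. Il33 lay above 97.9% of the measured genes with no LPS and 98.0% at 20 h, and above 81.9% at 8 h and 82.3% at 16 h. The level of Il33 per kb was 19.0 times that of Il1rl1 with no LPS (17.9 to 20.3), 7.61 times at 8 h (6.96 to 8.31), 8.95 times at 16 h (8.14 to 9.85) and 20.1 times at 20 h (18.8 to 21.4). The lengths count every annotated exon, so a gene with long exons that were not used reads too low on this scale.

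Beyond the 8 members, the rest of the family was largely silent. None of the 5 other ligand genes (Il36a, Il36b, Il36g, Il36rn and Il1f10) was measured, with at most 1 read in any library and 3 of them at 0 in all 4. Of 8 other receptor and binding protein genes 3 were measured, and none of the 3 was called at 8, 16 or 20 h. The shares of all measured genes called in these comparisons were 8.31%, 8.23% and 0.652%, too low for 3 genes to show a difference from them. Sigirr, which encodes a receptor-like protein that restrains IL-1 and Toll-like receptor signalling, had 1523 and 1324 reads in the no LPS and 20 h libraries and 2695 and 2466 reads in those of 8 and 16 h. It was 1.74-fold the level with no LPS at 8 h (1.64 to 1.86) and 1.65-fold at 16 h (1.55 to 1.76), the opposite direction to Il33 and Il1rl1 and short of a call. Il18bp, whose product binds IL-18 outside the cell, had 87, 87, 57 and 80 reads.

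A run of 6 receptor genes of the family lies on chromosome 1, all on the plus strand, from the start of Il1r2 at 40074079 to the end of Il18rap at 40551705, a block of 478 kb. Read from the start of the block, Il1r2 (the decoy receptor for IL-1) had 4, 6, 6 and 4 reads in the 4 libraries and Il1rl2 (the IL-36 receptor) had 2, 2, 5 and 4, while Il1r1 and Il1rl1 between and after them were measured. Il18r1 starts within 1 kb of the end of Il1rl1 and had 10, 0, 0 and 9 reads. Both libraries with 0 reads were those in which Il33 and Il1rl1 were low, and the level with no LPS was at least 3.39-fold higher than at 8 h (0 reads set to 3) and at least 3.27-fold higher than at 16 h, all under 1 CPM. These folds take the 10 reads as exact, and the 95% counting intervals of the ratios begin at 2.28-fold and 2.20-fold. Its partner chain Il18rap, the last gene of the block, had 5348, 6836, 6380 and 4865 reads. Il18rap was thus the highest of the 6, at 28.0, 35.3, 34.1 and 26.0 CPM per kb, beside a binding chain at 0.0735 CPM per kb or less, and it was 1.26-fold the level with no LPS at 8 h (1.21 to 1.30). Neighbouring genes of the block therefore differed in level and in direction.

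**Figure D3:**
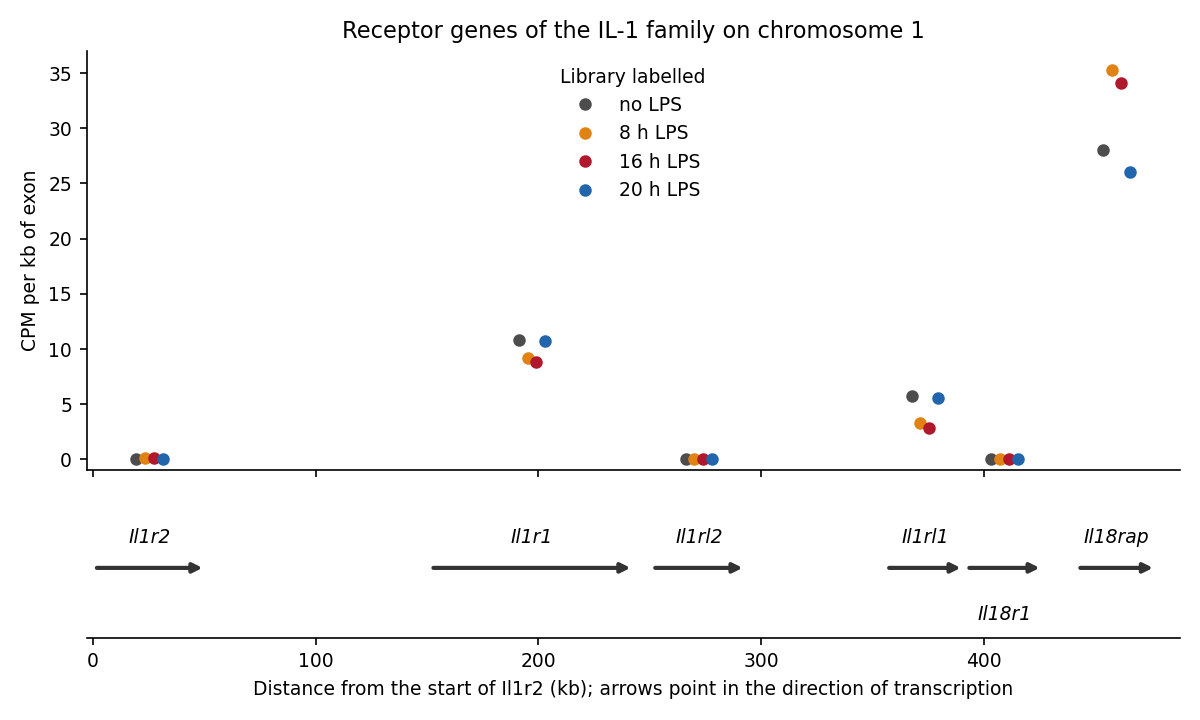
The upper panel plots CPM per kb of exon in the 4 libraries (colours) for the 6 receptor genes of the block on chromosome 1, and the lower panel maps them by distance in kb from the start of Il1r2. Il1r2, Il1rl2 and Il18r1 sit near 0, Il1r1 near 10, Il1rl1 lower at 8 and 16 h (3.32 and 2.87) than with no LPS and at 20 h (5.75 and 5.58), and Il18rap between 26.0 and 35.3.

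Most of the adaptors and kinases that act below these receptors were expressed, with small median differences. Of 19 listed genes 16 were measured. None was called at 8 h or 20 h and 1 was lower at 16 h, the ubiquitin-conjugating enzyme variant gene Ube2v1, which had 17 reads there against 35 with no LPS. Over all measured genes the called shares against no LPS were 8.31%, 8.23% and 0.652%, in the order 8, 16 and 20 h. Shares this low leave 16 genes too few to set the list apart from them. The median log2 ratio of the list was -0.14 at 8 h and -0.06 at 16 h, against 0.00 and 0.01 over all measured genes. At 8, 16 and 20 h alike, 13 of the 16 had a log2 ratio below 0, in comparisons that share the no LPS library. At 20 h the median was -0.03 against -0.00 over all measured genes, and some ratios were close to 0, such as -0.002 for Myd88. Myd88, the adaptor gene, was at 40.9, 30.9, 31.7 and 40.8 CPM in the 4 libraries, and was 1.32-fold lower at 8 h (1.21 to 1.45). The kinase gene Irak4 was at 11.0, 8.78, 10.6 and 13.6 CPM, and the ubiquitin ligase gene Traf6 at 81.7, 77.5, 79.1 and 80.6 CPM. The widest ratios on the list at 8 h were those of the kinase gene Irak2, 1.67-fold (1.26 to 2.23), the kinase-binding gene Tab1, 1.47-fold (1.32 to 1.64), Myd88 and Ikbkg, a subunit gene of the IKK complex, 1.28-fold lower (1.21 to 1.35).

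Genes for the processing and release of the family's cytokines went in mixed directions, with 13 of 22 measured. At 8 h and at 16 h, 1 was higher, 2 were lower and 10 were not called, with medians of 0.23 and 0.24 against 0.00 and 0.01 over all measured genes. Over all measured genes 4.19% were called higher and 4.13% lower at 8 h, and 4.13% and 4.09% at 16 h. Casp1, which encodes the protease that matures IL-1 beta and IL-18, had 110, 45, 51 and 114 reads, and was 2.48-fold lower at 8 h (1.74 to 3.60). Casp4, whose product senses intracellular LPS, had 855, 338, 352 and 833 reads and was 2.57-fold lower at 8 h (2.26 to 2.92). Both were low in the libraries in which Il33 was low. Nlrp3, an inflammasome sensor gene, had 35, 87, 97 and 32 reads and was 2.45-fold higher at 8 h (1.64 to 3.73), and Pycard, which encodes the adaptor that joins such sensors to caspase-1, had 1, 1, 2 and 3. Capn2, a calpain gene of the proteases that process IL-1 alpha, was at 213, 357, 356 and 212 CPM, 1.68-fold the level with no LPS at 8 h. The neutrophil and mast cell protease genes on the list (Ctsg, Elane, Prtn3, Cma1 and Mcpt4) had at most 2 reads in any library. At 20 h against no LPS none of the 13 was called, a comparison in which 0.652% of all measured genes were called.

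Of the genes known to respond to IL-1 in stromal cells 20 of 24 were measured, and calls went in both directions. The 4 that were not measured, Il6, Csf2, Csf3 and Icam1, had at most 22 reads in a library. At 8 h 4 were higher, 2 were lower and 14 were not called (median 0.19), at 16 h 4 were higher and 1 was lower (median 0.21), and at 20 h none was called. Over all measured genes 8.31% were called at 8 h, 8.23% at 16 h and 0.652% at 20 h. By direction, 4.19% were higher and 4.13% lower at 8 h, and 4.13% were higher and 4.09% lower at 16 h. Lcn2, which encodes a protein that binds bacterial iron carriers, had the widest difference, with 7057, 713, 742 and 6931 reads, or 250, 24.8, 26.8 and 250 CPM, and was 10.1-fold lower at 8 h (9.31 to 10.9). Its high and low libraries were those of Il33. The chemokine gene Cxcl2, with 70, 22, 42 and 86 reads, was 3.23-fold lower at 8 h (1.98 to 5.48) and was not called at 16 h. The chemokine gene Ccl20, with 10, 39, 35 and 13 reads and at most 1.36 CPM, was 3.84-fold higher at 8 h (1.88 to 8.63). The NF-kB feedback gene Tnfaip3 was 2.21-fold higher at 8 h (1.81 to 2.70). The other 2 higher genes were the chemokine genes Cxcl1 and Ccl2, at 2.17-fold each. Of the list of type 2 alarmins and IL-33 response genes 3 of 13 were measured and none was called. They were the growth factor gene Areg, at 126, 215, 224 and 134 CPM, the receptor gene Il4ra, at 18.2, 26.8, 24.8 and 18.6 CPM, and Il13ra1, at 4.32, 5.26, 6.50 and 4.73 CPM. The cytokine genes Il5 and Il4 had at most 1 read and Il13 had 0 throughout.

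**Figure D4:**
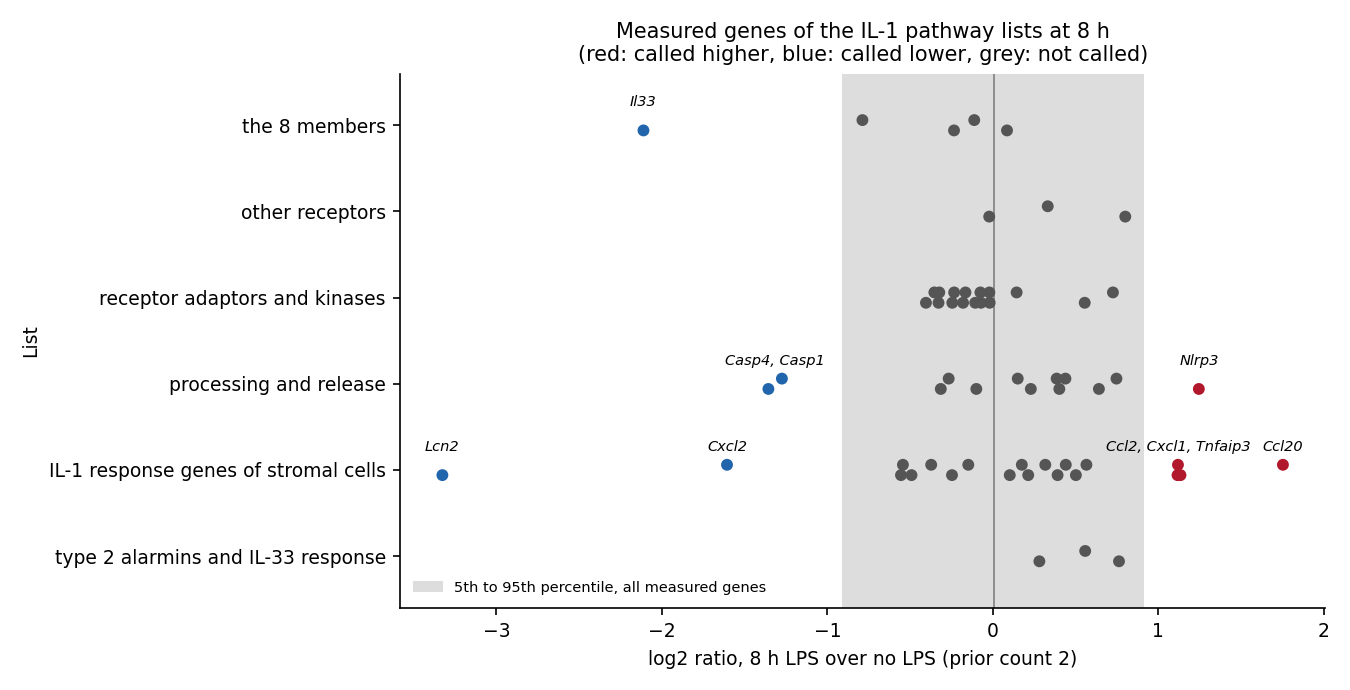
Log2 ratio of the library labelled 8 h over that labelled no LPS for each measured gene of the lists, 1 point a gene (red called higher, blue called lower, grey not called), with the central 90% of all measured genes shaded, from -0.91 to 0.91. Il33 (-2.11), Lcn2 (-3.33), Cxcl2 (-1.61), Casp1 and Casp4 lie to the left of the shading. Nlrp3 (1.24), Ccl20, Tnfaip3, Cxcl1 and Ccl2 lie to the right of it, and the points of the adaptor and kinase list lie inside it.

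Profiles over the 4 libraries were compared by the distance between log2 levels centred on each gene's mean, among 9906 protein-coding genes with at least 100 reads in a library. The 5 nearest to Il33 were Dnm3, a dynamin gene (distance 0.07), Ace, which encodes angiotensin-converting enzyme (0.15), Guca1b (0.17), the growth cone gene Gap43 (0.22) and Zmat1 (0.24). Dnm3 had 555, 122, 121 and 525 reads and Ace 227, 47, 49 and 199, so that all had far fewer reads than Il33. The 3 nearest to Il1rl1 were Extl1, Cyp4f13 and Mlycd (distances 0.02, 0.02 and 0.03), of which Cyp4f13, a cytochrome P450 gene, had 1074, 626, 534 and 1028 reads. The 3 nearest to Il1r1 were Tubgcp3, Amz2 and Derl2, and the 3 nearest to Il1rap were Spcs1, Myo9a and Ctdspl2, all within 0.02. The 4 libraries are the only points in each profile and are shared by all genes.

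**Figure D5:**
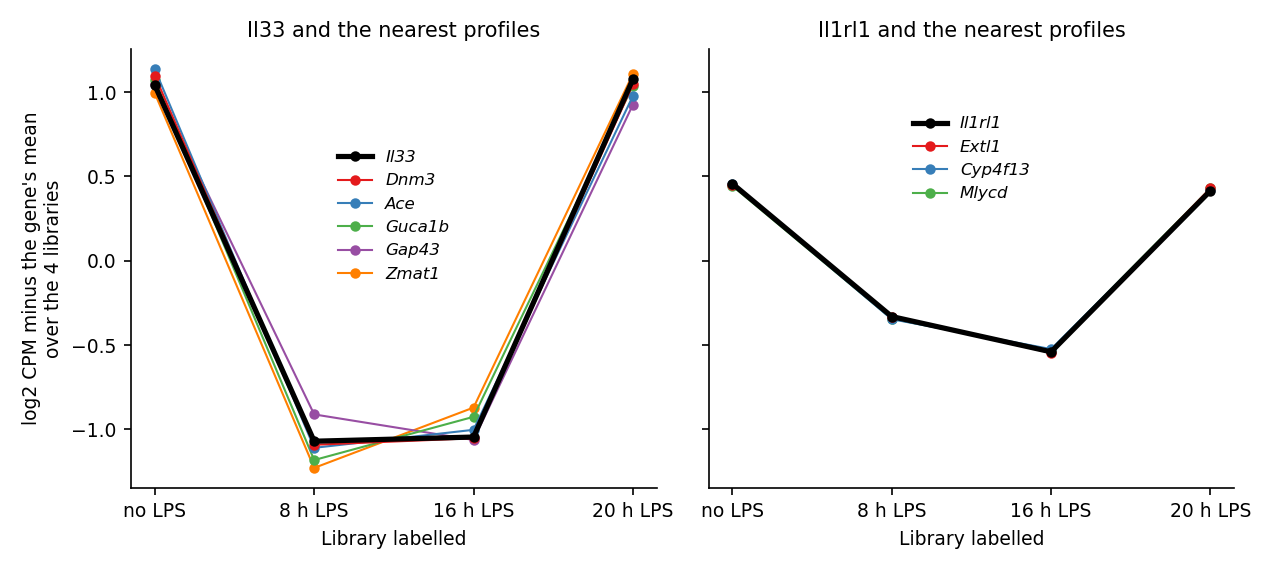
Centred log2 CPM of Il33 (left) and Il1rl1 (right), in black, with the 5 and the 3 genes of nearest profile in colour, over the 4 libraries on the horizontal axis. Il33 lies 1.04 above its mean with no LPS, 1.07 and 1.05 below it at 8 and 16 h and 1.08 above it at 20 h, and the range of Il1rl1, from 0.46 above to 0.54 below, is narrower.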

How the data were processed

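Values in the deposited table are raw gene counts, made by the authors with STAR and featureCounts on mm10, per the submitters' processing notes. For version, annotation, strand setting and multi-mapping rules: not given in the sources used here. Symbols and coordinates came from GENCODE M21 (mm10), where 38872 of 39056 identifiers (99.5%) matched by stable identifier, and promoter sequences from RefSeq (GRCm38.p6). Columns were matched to samples by title. Counts were scaled with TMM factors from all 4 libraries (edgeR 4.0.16). Folds are ratios of scaled counts with exact conditional binomial (Clopper-Pearson) 95% intervals, levels have exact Poisson intervals, and log2 ratios used a prior count of 2. A floor of 3 reads was 0.104 to 0.108 CPM. As PCR copies were not marked by molecular identifiers, these limits hold for counting error alone.

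All 8 members were named. Of each list all measured genes were named where 6 or fewer were measured, otherwise up to 4 with the largest absolute log2 ratio at 8 h, plus Myd88, Irak4, Traf6, Casp1, Nlrp3 and others not reported here; for profiles, the 5 nearest to Il33 and the 3 nearest to other members. Cxcl1, Ccl2, Ube2v1, Pycard, the proteases, the unmeasured genes and the marker genes named were chosen with their values in view. The members and lists were chosen with earlier results of these data known. Alternatives were scaling by library size, DESeq2 1.42.0 size factors or upper quartiles, other filters, fold thresholds, interval levels and prior counts.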

Additional observations from a re-analysis of the deposited data

How the results depend on the processing

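Of 40 recomputed counts of called members, 31 stayed within 1.5 times the reported count and 9 did not, none with a reversed direction. Il33 was called in each alternative in which it is reported as called. With no count filter the count was 2 at 8 h, 2 at 16 h and 1 at 20 h against no LPS, since Il1rn joined. With a fold threshold of 1.5 it was 2 at 8 h, 2 at 16 h and 2 from 16 to 20 h, since Il1rl1 joined. At 16 h it was 2 with library size scaling, 2 with DESeq2 size factors and 2 with upper quartile factors, again through Il1rl1. All 125 recomputed folds of measured members stayed inside their counting intervals, at 0.982 to 1.01 times the reported fold, and no scaling moved the median of all measured genes by more than 0.03 on the log2 scale. Il33 at 8 h had a ratio to no LPS of 0.228 to 0.231. No paired analysis was possible because each label has 1 library. Depth limits Il1a, Il1b and Il1rn, which have at most 17 reads in a library, and Il18, with at most 42.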
